A study of Homo sapiens with 2 samples.

Results

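The genes described here are 42 genes of cholesterol and fatty acid synthesis, taken from a fixed list of symbols and found in the data by Entrez gene identifier. All 42 were listed in both libraries, out of 19316 genes listed in either. They comprise 18 genes of sterol synthesis, 6 of its control by the sterol regulatory element-binding proteins (SREBPs), and 18 of fatty acid synthesis, elongation, desaturation and activation. RNA came from the established liver cancer line SNU449 (human), collected 7 days after lentiviral delivery of a short hairpin RNA (shRNA) against FZD2, a frizzled receptor for Wnt ligands, or of a negative control shRNA. Each group was 1 library of polyadenylated RNA from the same line, so no value has a replicate error, no difference between conditions could be tested, and no p-value is given. Not given in the sources used here are the hairpin sequences and whether 1 culture or several gave each library.

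Values are FPKM as deposited by the authors, that is, fragments scaled to transcript length and to library depth, so that levels of different genes can be compared. A ratio is log2 of (FPKM + 1) in the FZD2 shRNA library over (FPKM + 1) in the control, and it understates the difference of genes at low FPKM. A gene was measured if it reached 1 FPKM in at least 1 library, and was called higher or lower at a ratio of 1 or more in size, which is 2-fold. Intervals are 95% exact binomial intervals of the ratio of expected counts, scaled to the library totals, and they cover counting error only. In bulk RNA, fewer cells of a type and less RNA per cell cannot be told apart.

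Cholesterol is built from acetyl-CoA through mevalonate, farnesyl diphosphate, squalene and lanosterol, and fatty acids are built from the same acetyl-CoA through malonyl-CoA. SREBPs are membrane-bound transcription factors. When sterols are scarce, SCAP escorts them from the endoplasmic reticulum to the Golgi, where proteases release the active factor, and when sterols are plentiful the INSIG proteins hold SCAP back. SREBF2 is known mainly for sterol genes and SREBF1 mainly for fatty acid genes, and the liver is a main site of both pathways. SREBPs typically bind promoters beside NF-Y, which binds CCAAT, and Sp1, which binds GC-rich boxes.

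Promoters, from 250 bases before to 50 bases after the gene start, were found for 38 of the 42 genes in a table of RefSeq promoters (GRCh38.p14), which is separate from the gene table used for symbols. FDFT1, SQLE, ACAT2 and FASN had no entry in the promoter table. A set of 4 short motifs were searched on both strands, and their letters stand in capitals in the sequences printed here. The sterol element core TCACNCCAC was found in the promoter of 1 gene, SREBF2 (2.63% of the 38), against 1.15% of 27305 promoters and 1.05% of the 11101 promoters of measured genes. CCAAT was found in 22 of 38 (57.9%, against 37.0% of measured genes), and in 12 of 15 sterol promoters, 7 of 17 fatty acid promoters and 3 of 6 SREBP control promoters. The Sp1 box GGGCGG was found in 34 (89.5%, against 67.8%), and the E-box CACGTG in 6 (15.8%, against 9.85%). A match to letters is not evidence of a bound site. MVK and NSDHL had the most CCAAT matches, at 5 each, followed by MSMO1 with 4. The promoters of ELOVL5 and PMVK are shown because these genes had the lowest and the highest ratio, and that of ELOVL2 because it was the other elongase called lower. A 60-base stretch of SREBF2 is shown because it alone of the 38 promoters matched the sterol element core. Variants of that core were not searched, so the other promoters may hold sterol elements of other spelling. The SREBF2 stretch was chosen after the matches were seen, and it holds TCACCCCAC at positions -133 to -125 and the reverse complement of CCAAT at -106 to -102, counted from the base before the gene start as -1. ELOVL5 lies on chr6:53348901-53349200 (minus strand), PMVK on chr1:154936670-154936969 (minus strand), ELOVL2 on chr6:11044256-11044555 (minus strand) and the SREBF2 stretch on chr22:41832957-41833016 (plus strand).
ELOVL5: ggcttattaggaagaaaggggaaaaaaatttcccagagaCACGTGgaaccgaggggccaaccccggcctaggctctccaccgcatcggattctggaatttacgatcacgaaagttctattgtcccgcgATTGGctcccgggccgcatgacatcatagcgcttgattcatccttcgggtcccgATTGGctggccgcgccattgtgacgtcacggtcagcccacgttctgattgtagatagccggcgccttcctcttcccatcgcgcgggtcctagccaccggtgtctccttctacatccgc
PMVK: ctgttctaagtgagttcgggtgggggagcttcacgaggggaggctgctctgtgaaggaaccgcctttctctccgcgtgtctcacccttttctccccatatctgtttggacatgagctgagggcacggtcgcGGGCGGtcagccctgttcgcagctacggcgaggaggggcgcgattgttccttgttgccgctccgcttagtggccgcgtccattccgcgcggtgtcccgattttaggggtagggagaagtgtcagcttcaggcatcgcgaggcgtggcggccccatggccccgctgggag
ELOVL2: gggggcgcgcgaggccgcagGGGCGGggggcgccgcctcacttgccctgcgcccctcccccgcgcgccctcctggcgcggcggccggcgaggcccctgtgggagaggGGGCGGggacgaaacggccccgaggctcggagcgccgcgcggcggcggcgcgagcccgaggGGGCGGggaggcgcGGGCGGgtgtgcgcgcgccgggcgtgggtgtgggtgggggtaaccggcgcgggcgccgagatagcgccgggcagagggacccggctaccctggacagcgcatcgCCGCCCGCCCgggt
SREBF2: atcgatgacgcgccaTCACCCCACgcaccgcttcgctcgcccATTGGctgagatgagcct
The ELOVL5 promoter held 2 CCAAT matches, 1 E-box and 0 Sp1 boxes, and the ELOVL2 promoter 6 Sp1 boxes and 0 CCAAT matches. The PMVK promoter held 1 Sp1 box and no other match. Thus the 2 elongase genes called lower shared no motif of the 4, and CCAAT matches stood in promoters of genes on either side of a ratio of 0, such as EBP (3 matches) and SCD (2 matches).

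Of the 42 genes, 41 were measured. ACACB, a mitochondria-associated acetyl-CoA carboxylase, was not, at 0.5 FPKM with FZD2 shRNA and 0.35 FPKM in the control. Of the 41, 5 were at least 2-fold lower with FZD2 shRNA (12.2%, against 7.41% of all 14377 measured genes) and 1 was at least 2-fold higher (2.44%, against 15.2%). The lower genes were ELOVL5, ELOVL2, STARD4, ACSL1 and AACS, and the higher gene was PMVK. The median ratio was -0.41 for the 41 genes and -0.0042 for all measured genes, and 31 of the 41 lay below 0 (75.6%, against 50.1%). The ratios also moved with read sharing. A gene was taken to have shared reads where its expected count was not whole in at least 1 library. This is a reading of the values, since the sources do not say why a count is not whole, and "shared reads" is meant in that sense throughout. Such genes had a median of 0.48 across the transcriptome, against -0.25 for the other 8154. Among the 31 synthesis genes without shared reads the median was -0.52, and 23 lay below 0 (74.2%, against 64.7% of all measured genes without shared reads). Of these 31, 4 were lower (12.9%, against 10.2%) and 1 was higher (3.23%, against 4.19%). In all, the 42 genes took 0.236% of expected counts with FZD2 shRNA (exact 95% interval 0.233% to 0.239%) and 0.316% in the control (0.312% to 0.320%), of which SCD made up 15.1% and 20.4%.

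**Figure D1:**
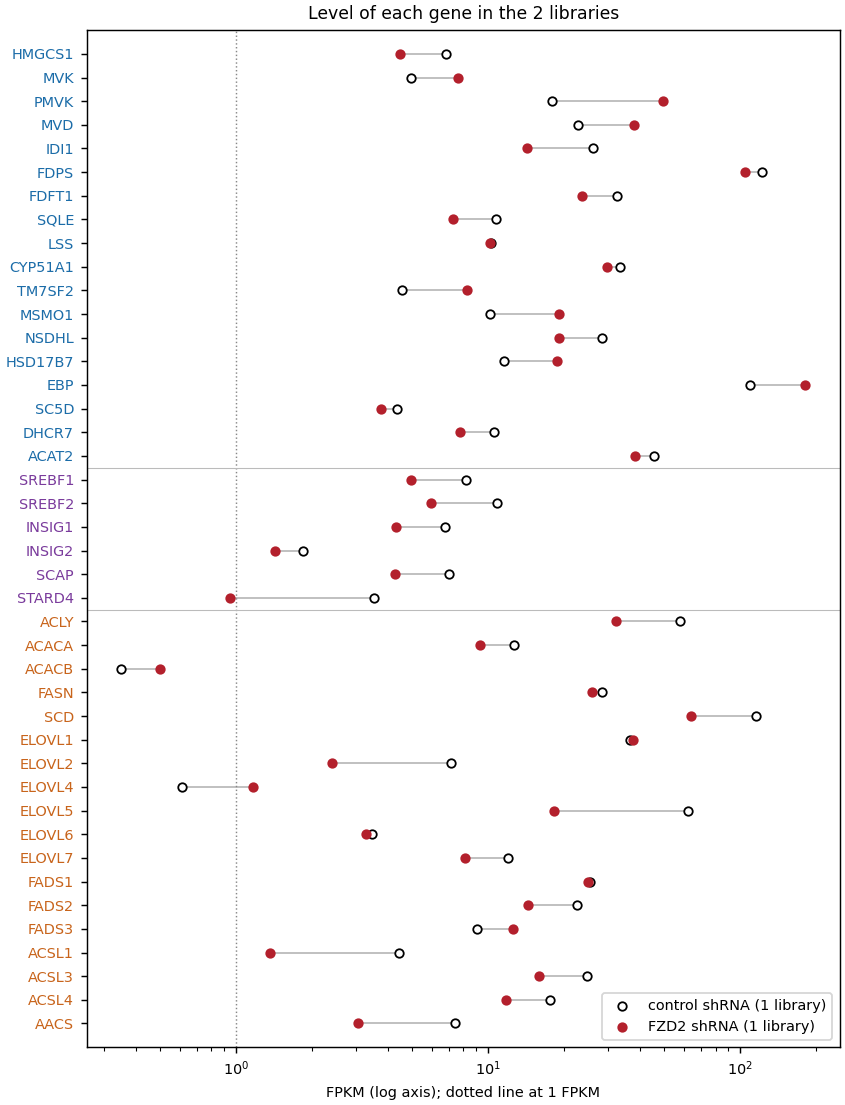
FPKM (log axis) of each of the 42 genes in the FZD2 shRNA library (filled red) and the control library (open black), 1 library each, with a grey line joining the pair; label colours mark sterol synthesis (blue), SREBP control (purple) and fatty acid genes (orange). The widest gaps are at ELOVL5 (18.33 against 62.33), STARD4 (0.95 against 3.53) and ACSL1 (1.37 against 4.43), all lower with FZD2 shRNA, while PMVK (49.39 against 17.89) lies the other way.

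The enzymes that lead from acetyl-CoA to farnesyl diphosphate had ratios on either side of 0. Of these 7 genes, 1 was called higher (14.3%, against 15.2% of all measured genes) and 0 lower (against 7.41%). Ratios above 0 were seen for 3 of them. ACAT2, the cytosolic thiolase that makes acetoacetyl-CoA, was at 38.2 FPKM with FZD2 shRNA and 45.55 in the control (ratio -0.25). HMGCS1, which makes HMG-CoA from it, was at 4.46 against 6.82 (-0.52). The next 3 steps lay on the other side. MVK, the mevalonate kinase, was at 7.61 against 4.94 FPKM (0.54, 122 against 87 expected counts). PMVK, the phosphomevalonate kinase, was at 49.39 against 17.89 (1.42), with an expected-count ratio of 1.27 (1.02 to 1.53). MVD, the decarboxylase that yields isopentenyl diphosphate, was at 38.05 against 22.68 (0.72). These 3 consecutive enzymes were therefore each at a higher level in the FZD2 shRNA library, although PMVK alone passed 2-fold. IDI1, the isomerase that follows MVD, was at 14.23 against 26.21 (-0.84), with a count ratio of -0.91 (-1.10 to -0.72). FDPS, the farnesyl diphosphate synthase, was at 104.83 against 122.09 (-0.22) and had shared reads, so its value is uncertain.

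The 11 enzymes from squalene to cholesterol were split in the same way, with 7 ratios below 0 and 4 above. Past 2-fold were 0 of them, against 7.41% lower and 15.2% higher of all measured genes. FDFT1, the squalene synthase, was at 23.62 against 32.65 FPKM (-0.45, shared reads), and SQLE, the squalene epoxidase, at 7.29 against 10.74 (-0.50). LSS, which cyclises the epoxide to lanosterol, was at 10.19 against 10.33, and its count interval (-0.27 to 0.16) spanned 0. CYP51A1, the lanosterol demethylase, was at 29.77 against 33.53 (-0.17, shared reads). NSDHL, a sterol dehydrogenase of demethylation, was at 19.12 against 28.26 (-0.54). DHCR7, the reductase that makes cholesterol from its precursor, was at 7.76 against 10.62 (-0.41), and SC5D, the sterol desaturase before it, was at 3.75 against 4.35 (-0.17, shared reads).

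The 4 enzymes of this stretch with higher levels after FZD2 shRNA act between lanosterol and cholesterol. EBP, the sterol isomerase, had the highest level of the 42 genes in the FZD2 shRNA library, at 181.7 against 109.71 FPKM (0.72), and its 1764 against 1094 expected counts gave a ratio of 0.72 (0.61 to 0.83). TM7SF2, a sterol reductase, was at 8.25 against 4.56 (0.73). MSMO1, the methyl sterol oxidase, was at 19.06 against 10.2 (0.84), and HSD17B7, a keto-sterol reductase, at 18.73 against 11.55 (0.65). MSMO1 and HSD17B7 had shared reads, while EBP and TM7SF2 did not. Across all 18 sterol genes the median was -0.17, with 1 higher (5.56%, against 15.2%) and 0 lower (against 7.41%). Once the trend with GC content was taken out, this median was 0.23, the same as the 0.23 of all measured genes.

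All 6 genes of SREBP control and sterol transport had ratios below 0, with a median of -0.61 and 1 called lower (16.7%, against 7.41%). SREBF2 was at 5.95 against 10.85 FPKM (-0.77, 264 against 494 expected counts), and SREBF1 at 4.94 against 8.21 (-0.63). SCAP, the escort, was at 4.29 against 6.99 (-0.59). These genes of the escorted complex thus had ratios close to each other. INSIG1 was at 4.31 against 6.78 (-0.55), and its paralog INSIG2 at 1.43 against 1.85, with 29 and 39 expected counts and an interval (-1.14 to 0.34) that spanned 0. STARD4, a carrier that moves sterol between membranes, was at 0.95 against 3.53 FPKM (-1.22, shared reads). Its 32.76 and 129.28 expected counts gave a ratio of -1.93 (-2.53 to -1.37). With the GC trend taken out, SREBF1 (-0.81), SREBF2 (-0.70), SCAP (-0.69) and STARD4 (-0.69) remained below 0, INSIG1 was at -0.051 and INSIG2 at 0.29.

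Fatty acid genes had a median of -0.54 over 17 measured, with 4 lower (23.5%, against 7.41% of all measured genes) and 0 higher (against 15.2%). Without shared reads, the 4 stood among 14 measured genes, against 10.2% of all genes without shared reads. The enzymes that make palmitate differed in size. ACLY, which produces cytosolic acetyl-CoA from citrate, was at 32.12 against 57.62 FPKM (-0.82), with a count ratio of -0.85 (-0.96 to -0.75). ACACA, the cytosolic acetyl-CoA carboxylase, was at 9.29 against 12.68 (-0.41, shared reads). FASN, the fatty acid synthase, was at 25.94 against 28.27 (-0.12, and 0.034 in TPM). AACS, which activates acetoacetate for lipid synthesis, was called lower at 3.06 against 7.38 (-1.05), with 81 against 207 expected counts and a count ratio of -1.32 (-1.71 to -0.94). AACS missed 2-fold in TPM (-0.98).

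The desaturases, which place double bonds in acyl chains, had 0 of 4 members past 2-fold. Of all measured genes, 7.41% were lower and 15.2% higher. SCD, the stearoyl-CoA desaturase, was at 64.18 against 116.03 FPKM (-0.84), and its 2934 against 5448 expected counts gave -0.86 (-0.92 to -0.79), a narrow interval at this depth. FADS1, FADS2 and FADS3 lie together on chromosome 11. FADS2, of polyunsaturated fatty acid synthesis, was at 14.37 against 22.63 (-0.62). FADS1, which acts after it, was at 24.95 against 25.43 (-0.026, shared reads), and FADS3 at 12.62 against 9.07 (0.44). The 3 neighbours thus had ratios below, near and above 0.

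Among the 6 elongases, which lengthen acyl-CoA chains, 2 were lower (33.3%, against 7.41% of all measured genes) and 0 higher (against 15.2%). The 2 stood among 5 elongases without shared reads, against 10.2% of all such genes. With the GC trend taken out, 1 of the 6 was lower by 2-fold (against 2.53% of measured genes with known GC content). Then 2 of the 6 lay below 0, and the median was 0.099 (0.23 for all measured genes). ELOVL5, an elongase of polyunsaturated chains, was at 18.33 against 62.33 FPKM (-1.71, 3.28-fold lower), the lowest ratio of all 41 measured genes. Its 379 against 1536 expected counts gave -1.98 (-2.15 to -1.82), and its mean transcript length in the files was 2495.67 bases with FZD2 shRNA and 2889.7 in the control. ELOVL2, which also acts on polyunsaturated chains, was at 2.41 against 7.13 (-1.25), with 82 against 249 counts. The elongases of saturated and monounsaturated chains were closer together in the 2 libraries. ELOVL1 was at 37.53 against 36.51 (0.039) and ELOVL6, which extends palmitate, at 3.28 against 3.47 (-0.063). ELOVL7 was at 8.09 against 11.99 (-0.52, shared reads). ELOVL4, known for ultra-long chains, was at 1.17 against 0.61 (0.43), on 30 and 16 expected counts.

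The 3 long-chain acyl-CoA synthetases among the 42 genes, which activate fatty acids for use, all had ratios below 0. None of the 3 had shared reads, and 64.7% of all measured genes without shared reads also lay below 0. ACSL1 was called lower at 1.37 against 4.43 FPKM (-1.20), with 43 against 143 expected counts and a count ratio of -1.70 (-2.23 to -1.20). ACSL3 was at 15.96 against 24.67 (-0.60) and ACSL4, which favours polyunsaturated substrates, at 11.84 against 17.62 (-0.54). ACSL1 thus had the lowest level of the 3 in either library and was the only 1 of them past 2-fold. This was 33.3% of the 3, against 7.41% lower of all measured genes and 10.2% of those without shared reads. After removal of the GC trend, ACSL1 was at -0.76, ACSL3 at -0.084 and ACSL4 at -0.014, and 0 of them were past 2-fold.

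**Figure D2:**
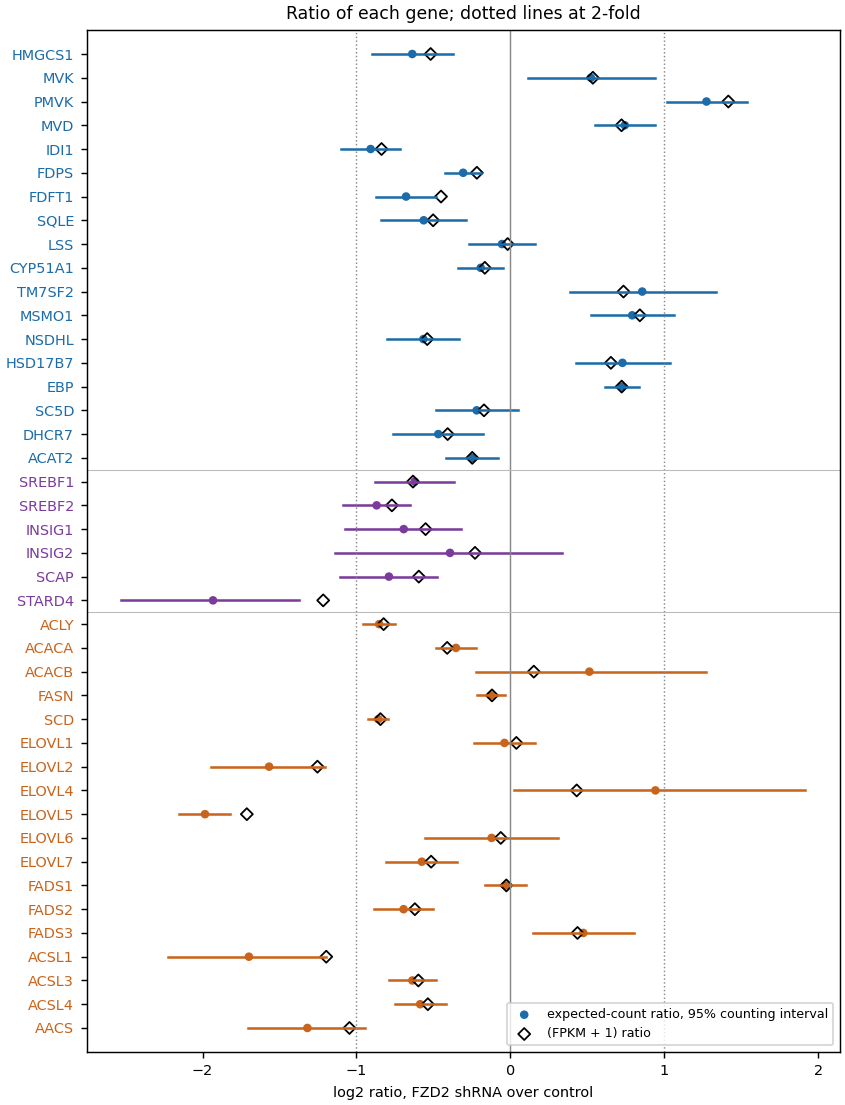
log2 ratio of FZD2 shRNA over control for each of the 42 genes: filled points are expected-count ratios with their 95% counting intervals, open diamonds are (FPKM + 1) ratios, and dotted lines mark 2-fold. ELOVL5 has the lowest diamond (-1.71) and PMVK the highest (1.42); diamonds fall short of the filled points for low genes such as STARD4 (-1.22 against -1.93).

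The count interval excluded 0 for 35 of the 41 measured genes and spanned it for LSS, SC5D, INSIG2, ELOVL1, ELOVL6 and FADS1. With no replicates, an interval that excludes 0 says that the 2 libraries differ beyond counting error and not that the conditions do. Transcript length, which the files give per library, differed by 5% or more for 9 of the 41 genes, and was shorter with FZD2 shRNA for 7 of them. PMVK (88.16% of its control length), FDFT1 (86.94%) and ELOVL5 (86.36%) had the shortest. For PMVK and ELOVL5 the call was on the same side of 2-fold by FPKM and by expected counts (count ratios of 1.27 and -1.98).

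Ratios moved with the GC content of transcripts and, across the synthesis genes, with transcript length, which was not examined over all measured genes. Among 7999 measured genes without shared reads, Spearman's rho between GC content and ratio was 0.36, and the median ratio was -0.54 in the fifth of genes with the lowest GC content and 0.13 in the highest. Across the 41 measured synthesis genes, rho was 0.27 with GC content and -0.50 with length (-0.44 once the GC trend was taken out). These are descriptions over genes of the same 2 libraries. Of the 20 genes below the median GC content of these genes (49.0%), 18 had ratios below 0, against 13 of the other 21. With the GC trend of genes without shared reads taken out, the median was -0.051 over the 31 synthesis genes without shared reads, close to the -0.0077 of all measured genes without shared reads. Over all 41, shared reads included, it was -0.014 (0.23 for all measured genes), 23 lay below 0, and 1 was lower and 3 higher by 2-fold (2.53% and 21.4% of the measured genes with known GC content). The lower gene was ELOVL5 (-1.20), and the higher genes were PMVK (1.41) and, with shared reads, MSMO1 (1.36) and HSD17B7 (1.04). Among called genes, ELOVL2 (-0.73), ACSL1 (-0.76), AACS (-0.90) and STARD4 (-0.69) then fell short of 2-fold. Whether GC content, length or shared reads had a part in any single ratio was not tested.

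**Figure D3:**
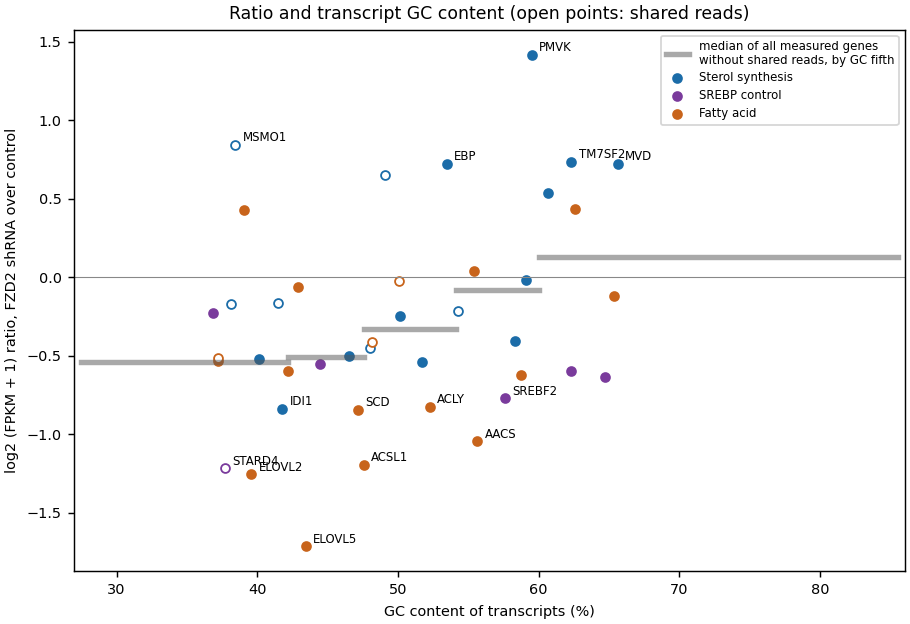
GC content of transcripts (%) and log2 (FPKM + 1) ratio of the 41 measured genes, open where reads were shared; grey bars are the medians of measured genes without shared reads in 5 equal bins of GC content. The bars climb from -0.54 to 0.13. ELOVL5, ACSL1 and AACS are among the genes well below the bar at their GC content. PMVK and, with shared reads, MSMO1 and HSD17B7 are among those well above.

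Other genes of the pathways were read from 6 lists, with 87 of 96 genes measured, of which 6 were lower (6.9%, against 7.41% of all measured genes) and 8 higher (9.2%, against 15.2%) by 2-fold. These shares are near or below those of all genes. Within single lists they ran from 0% to 16.7% lower and from 0% to 18.8% higher, on 1 to 3 genes each where any passed. All 8 higher genes had shared reads and none of the 6 lower genes had. The whole set of measured genes leaned the same way. Past 2-fold, whole counts in both libraries were found for 342 of its 2188 higher genes and 835 of its 1066 lower genes. Of 19 genes of SREBP processing and sterol-regulated degradation, 2 were lower and 0 were higher by 2-fold (median -0.51). PAQR3, which tethers the SCAP complex at the Golgi, was at 2.83 against 7.1 FPKM (-1.08), and SEC23A, of the vesicle coat that carries SCAP, at 9.48 against 20.33 (-1.03). Of 12 measured genes of cholesterol trafficking and its sensing by LXR, 2 were lower and 0 were higher (median -0.52). OSBP, the oxysterol-binding protein, was at 2.4 against 7.53 (-1.33), NR1H2, which encodes an LXR, at 12.66 against 26.91 (-1.03), and LIPA, the lysosomal acid lipase, at 20.48 against 41.4 (-0.98).

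In the isoprenoid branch, 2 of 12 measured genes were higher and 0 lower (median -0.17). GGPS1, which draws on the farnesyl diphosphate made by FDPS, was at 55.97 against 21.97 FPKM (1.31). PGGT1B, of protein prenylation, was at 1.99 against 4.3 (-0.83). Of 16 measured genes of fatty acid supply and the elongation cycle, 2 were higher and 1 lower (median 0.21). HACD4, an acyl-CoA dehydratase, was at 5.25 against 1.21 (count ratio 2.08, 1.59 to 2.59), ACSL6 at 2.8 against 0.69 (1.17), and ME1, the malic enzyme that supplies NADPH, at 8.47 against 18.32 (-1.03). Of 12 glycerolipid genes, 1 was higher and 0 lower (median 0.15), namely LPIN1, a phosphatidate phosphatase, at 33.52 against 9.94 (1.66). PLIN3, a lipid droplet coat protein, was at 180.18 against 100.75 (0.83) and LPIN2 at 1.13 against 2.76 (-0.82).

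Genes of mitochondrial fatty acid oxidation, the opposing pathway, were 3 higher and 1 lower of 16 (median -0.14, or -0.25 over the 12 without shared reads). PPARD and PPARA, nuclear receptors for fatty acids, were at 28.29 against 8.89 FPKM (1.57) and 6.21 against 2.34 (1.11). CPT2, of the carnitine shuttle, was at 21.14 against 8.74 (1.18), and ACADM, the medium-chain dehydrogenase, at 4.19 against 10.77 (-1.18). The higher genes of these 6 lists stand beside the shared-read median of 0.48, and whether shared reads had a part in them was not tested.

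**Figure D4:**
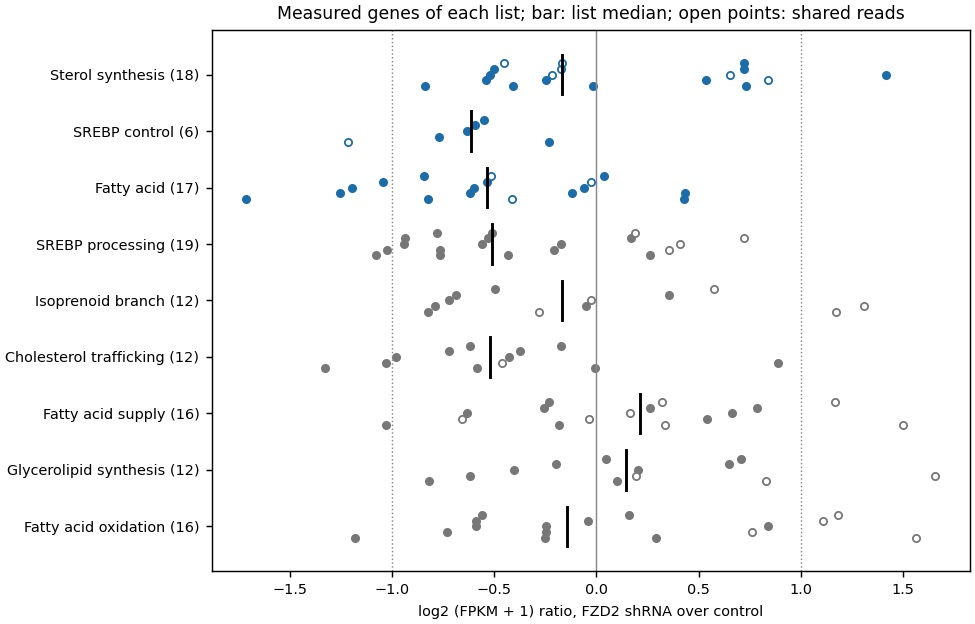
log2 (FPKM + 1) ratio of the measured genes of the 3 synthesis groups (blue) and of 6 other lists of lipid genes (grey), with the number measured in brackets, a black bar at each median and open points for shared reads. The SREBP control group has the lowest median (-0.61), and all points past 2-fold on the higher side are open except PMVK.

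FZD2 itself was at 15.76 against 59.45 FPKM (-1.85, shared reads), the direction its label gives. The libraries held 8234592 expected counts (FZD2 shRNA) and 8436870 (control), and the 42 genes had from 29 to 2934 and from 16 to 5448. Of 12 hepatocyte markers 3 were measured, all fibrinogen chains, while TTR was unlisted, with 0 counts, in either library, ALB was listed on 1 count in the FZD2 shRNA library only, and the nuclear receptor gene HNF4A on 1 count in the control only. Of 9 prostate markers, looked at because the growth protocol names prostate, 5 were measured, and KLK2, KLK3 and TMPRSS2 were unlisted. Of 4 adipocyte markers 2 were measured, ADIPOQ (4.42 against 1.13 FPKM) and LEP (3.14 against 0.56), each with shared reads, while PLIN1 was at 0.04 against 0. The summed FPKM of leukocyte markers was 94.26 against 27.79, of endothelial markers 2.59 against 0.56, and of fibroblast markers 338.85 against 431.41. Their part in the lipid gene ratios was not tested.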

How the data were processed

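Per the labels' protocols, polyadenylated RNA was selected, fragmented, reverse transcribed with random primers and amplified, 1 library per group. Bowtie2, HISAT and the build hg19 are named in the submitters' processing notes with no version. Not given in the sources used here are the program that counted reads and its strandedness. Deposited for each library were expected counts, which the authors estimated per gene without normalization, FPKM values, which the authors scaled to gene length and library size, and a length per gene. Genes not listed were set to 0. Symbols came from the RefSeq gene table (GRCh38.p14), which matched all 42 genes; promoters came from a separate RefSeq table.

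The members and lists were chosen with earlier results of these data known. Each measured member is named, with up to 3 genes per other list by size of ratio and every one past 2-fold, except some that are not reported here. Intervals used expected counts rounded to whole numbers, and 3 counts are a CPM of 0.364 (FZD2 shRNA) and 0.356 (control). Amplified reads without molecular identifiers are not independent molecules, so intervals and floors cover counting error only. Whole counts were read to a tolerance of 0.001. GC content came from GENCODE release 29 transcripts matched by RefSeq accession (96.1% of measured genes), and its trend was fitted by lowess (fraction 0.3) on genes without shared reads. The intervals, and a 2-fold cut on count ratios, were checked on counts simulated with counting error only. The (FPKM + 1) rule that made the calls was not simulated. The alternatives were 12: pseudocounts of 0.1 and 5, no filter or 5 FPKM, TPM, median centring, TMM factors from edgeR, CPM, size rules of 1.5-fold and 4-fold, genes without shared reads, and the GC trend taken out. Tools were Python 3.11.15, SciPy 1.17.1, NumPy 2.4.6, statsmodels 0.14.6, pandas 2.3.3, matplotlib 3.10.9 and edgeR 4.0.16 (scaling factors only).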

Additional observations from a re-analysis of the deposited data

How the results depend on the processing

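Shares of all genes under the same setting stand in brackets. The count of lower genes (5) was 1 with a pseudocount of 5 (2.09%), 3 of 35 with a filter of 5 FPKM (8.13%), 13 at 1.5-fold (21.7%), 0 at 4-fold (0.41%) and 1 with the GC trend taken out (2.53%). The count of higher genes (1) was 2 in TPM (20.3%), 6 at 1.5-fold (26.1%), 0 at 4-fold (2.66%) and 3 with the GC trend taken out (21.4%). With that trend taken out, the median moved to -0.014 over all measured members (0.23 for all measured genes) and to -0.084 over fatty acid genes. Over sterol genes it moved, with its sign turned, to 0.23, the same as for all measured genes, whereas the SREBP control median was -0.69. Under the other alternatives each of the 4 medians stayed between the median of its members' lower interval limits and the median of their upper limits. Here the counting intervals were placed around the (FPKM + 1) ratios, and the 2 limits are not an interval of the median itself. ELOVL5 and PMVK kept their calls under each alternative except 4-fold. TPM moved the median of all measured genes from -0.0042 to 0.14, and the cause of no other change was tested. No paired analysis was possible because each group holds 1 library, and leaving out a library leaves no comparison. Depth limits INSIG2, ELOVL4 and ACACB most, each with 16 to 39 counts per library.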
